A study of Mus musculus with 6 samples.

Results

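Mitochondrial fusion and fission genes were followed in mouse embryonic fibroblasts, connective tissue cells cultured from embryos, that lack NGLY1 according to their labels. The members were the 8 genes Mfn1, Mfn2, Opa1, Oma1, Yme1l1, Dnm1l, Fis1 and Mff, found by their symbols among the 23842 genes of a read count table, and all 8 were found and passed the filter on low counts. The table held 3 libraries of Ngly1 KO cells (genotype NGLY1-/-) and 3 of WT cells, all of the C57BL/6 strain, cultured without treatment in serum-containing medium rich in glucose. NGLY1 is the cytosolic enzyme that removes N-linked glycans from misfolded glycoproteins. The labels give neither the age of the embryos nor the derivation of each library (embryo, line or dish), so p-values here cover the spread between libraries only, which may be technical.

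Mitochondria join and divide continuously, and the balance of both sets whether they form a network or separate bodies. The mitofusins MFN1 and MFN2, GTPases of the outer membrane, join outer membranes, and OPA1, a dynamin-like GTPase of the inner membrane, joins inner membranes and shapes the cristae. The inner membrane proteases OMA1, which is activated by stress, and YME1L1 cut OPA1 into shorter forms. Division is carried out by the cytosolic dynamin DRP1, the product of Dnm1l, which docks on outer membrane proteins such as MFF and, from work begun in yeast, FIS1.

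Library totals were 33007239 to 37841558 counts in Ngly1 KO cells and 27323577 to 37790710 counts in WT cells, and genes typed as ribosomal RNA took 0.208% to 3.73% of the counts in Ngly1 KO libraries and 1.45% to 2.82% in WT libraries. Ngly1 itself had 618, 420 and 457 counts in Ngly1 KO libraries and 668, 632 and 307 counts in WT libraries (edgeR, adjusted p = 0.99). With the deleted part of Ngly1 not stated in the labels, a count summed over the gene does not check the genotype. The 10 fibroblast markers summed to 10600 to 11800 CPM (counts relative to the scaled library total) in Ngly1 KO cells and 8210 to 9210 CPM in WT cells. Without Fn1, the other 9 summed to 3760 to 4310 CPM in Ngly1 KO cells and 6110 to 6880 CPM in WT cells. Of the 10, 2 were higher (Fn1 and Dcn) and 6 lower in Ngly1 KO cells, among them Vim, at 677 ± 42.4 CPM in Ngly1 KO and 1741 ± 231 CPM in WT cells, and S100a4, at 133 ± 17.2 and 1008 ± 70.9 CPM (SD, n = 3 each). Summed markers of macrophages (5 of 6 analysed) lay at 2.45 to 2.71 CPM in Ngly1 KO cells and 2.05 to 3.66 CPM in WT cells, those of endothelium (4 of 5) at 2.73 to 2.86 and 1.49 to 2.19 CPM, those of epithelium (5 of 6) at 0.701 to 1.53 and 1.86 to 2.62 CPM, and those of skeletal muscle (2 of 5) at 3.92 to 4.23 and 0.796 to 1.38 CPM. Most of the endothelial sum came from Kdr, which was higher in Ngly1 KO cells (mean 2.19 against 1.14 CPM), and Tek was not called. Pecam1 and Cdh5 did not pass the filter on low counts. Pecam1 lay lower in Ngly1 KO libraries (0 to 0.0305 CPM) than in WT libraries (0.18 to 0.368 CPM), and Cdh5 overlapped. Of the muscle markers, Des was higher in Ngly1 KO cells (mean 3.56 against 0.452 CPM) and Acta1 was not called (0.525 and 0.723 CPM). The neural markers (3 of 5) summed to 57.0 to 69.7 CPM in Ngly1 KO cells and 36.3 to 44.2 CPM in WT cells, nearly all from Tubb3 and Map2. Tubb3 was higher in Ngly1 KO cells (mean 36.6 against 13.1 CPM), as was Sox2 (2.11 against 0.270 CPM). Map2 was not called (22.7 in Ngly1 KO and 26.8 CPM in WT cells). Ptprc, the leukocyte marker CD45, was at 0 in every Ngly1 KO library and at most 0.0737 CPM in WT libraries. The part of these marker levels in the results below was not tested, and in bulk RNA fewer cells of a type and less RNA per cell cannot be told apart.

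The region around the transcription start is shown for the 3 members whose difference between the groups passed the test under every alternative setting tried, Opa1, Fis1 and Oma1. Each window runs from 250 bases before to 50 bases after a RefSeq start in GRCm38.p6, on the plus strand. Capitals mark matches to the motifs searched.
Opa1, chr16:29579084-29579383: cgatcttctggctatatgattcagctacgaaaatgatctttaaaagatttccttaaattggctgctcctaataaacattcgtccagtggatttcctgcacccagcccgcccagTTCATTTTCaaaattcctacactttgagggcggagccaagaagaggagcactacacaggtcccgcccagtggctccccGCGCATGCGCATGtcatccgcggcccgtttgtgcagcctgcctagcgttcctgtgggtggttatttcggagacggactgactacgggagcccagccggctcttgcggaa
Fis1, upstream start, chr5:136953025-136953324: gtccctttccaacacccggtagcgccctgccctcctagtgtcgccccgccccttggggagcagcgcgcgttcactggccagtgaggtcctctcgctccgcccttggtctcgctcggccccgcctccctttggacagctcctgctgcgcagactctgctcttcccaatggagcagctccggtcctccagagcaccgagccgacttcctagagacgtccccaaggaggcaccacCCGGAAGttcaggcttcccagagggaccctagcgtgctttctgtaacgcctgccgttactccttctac
Oma1, chr4:103313596-103313895: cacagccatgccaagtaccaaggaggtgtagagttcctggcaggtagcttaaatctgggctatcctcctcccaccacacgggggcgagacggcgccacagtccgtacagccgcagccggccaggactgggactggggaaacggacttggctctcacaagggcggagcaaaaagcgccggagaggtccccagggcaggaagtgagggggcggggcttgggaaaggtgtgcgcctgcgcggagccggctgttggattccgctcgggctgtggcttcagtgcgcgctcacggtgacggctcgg

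5 motifs were searched on both strands in the 13 windows that RefSeq gives for the 8 genes. They were the core of the site bound by NRF1, a regulator of respiratory genes (CATGCGC), the ETS core (CCGGAAG), the antioxidant response element (TGACNNNGC), the C/EBP-ATF element (TGATGNAAT) and the core of the interferon-stimulated response element (GAAANNGAA). The NRF1 and interferon cores were cut down from longer forms after the results of searching with those had been seen. The longer interferon form had 0 matches in the 13 windows. The interferon match marked in the Opa1 window came only with the shortened form. The Opa1 window held the NRF1 core 3 times in 1 run of overlapping copies on both strands, which begins 59 bases before the start site. This core was in 3.91% of all 32851 windows. The ETS core was in windows of Dnm1l, Fis1, Mfn1 and Yme1l1 and in 8.86% of all windows, and in the printed Fis1 window it began 18 bases before the start site. The Opa1 window also held the interferon core, on the minus strand from 137 bases before the start site. That core was in 8.56% of all windows, and in Opa1 the next letter was C and not the A of the longer form. No other matches overlapped. The antioxidant and C/EBP-ATF elements, in 12.4% and 0.965% of all windows, had 0 matches in the 13 windows. A match is a run of letters and not a shown binding site.

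Of the machinery, 4 of 8 genes differed between the genotypes, in small steps and in both directions. Oma1 and Mff were higher in Ngly1 KO cells, Opa1 and Fis1 were lower, and Mfn1, Mfn2, Yme1l1 and Dnm1l did not pass the test. These 4 of 8 compare with 60.9% of all 15039 tested genes past an adjusted p of 0.05 in the same fit, 30.7% higher and 30.2% lower, so the share called was near that of genes at large. The median size of the change, as an absolute log2 fold change, was 0.18 over the 8 genes and 0.59 over all tested genes. Only 10449 of the 15039 tested genes averaged at least 5 CPM, and the median over all takes in the genes below that level. The medians were not matched for level, so their difference is not shown to be a trait of the 8 genes. The 8 genes summed to 723, 649 and 653 CPM in Ngly1 KO libraries and 691, 735 and 727 CPM in WT libraries, ranges that overlap.

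**Figure D1:**
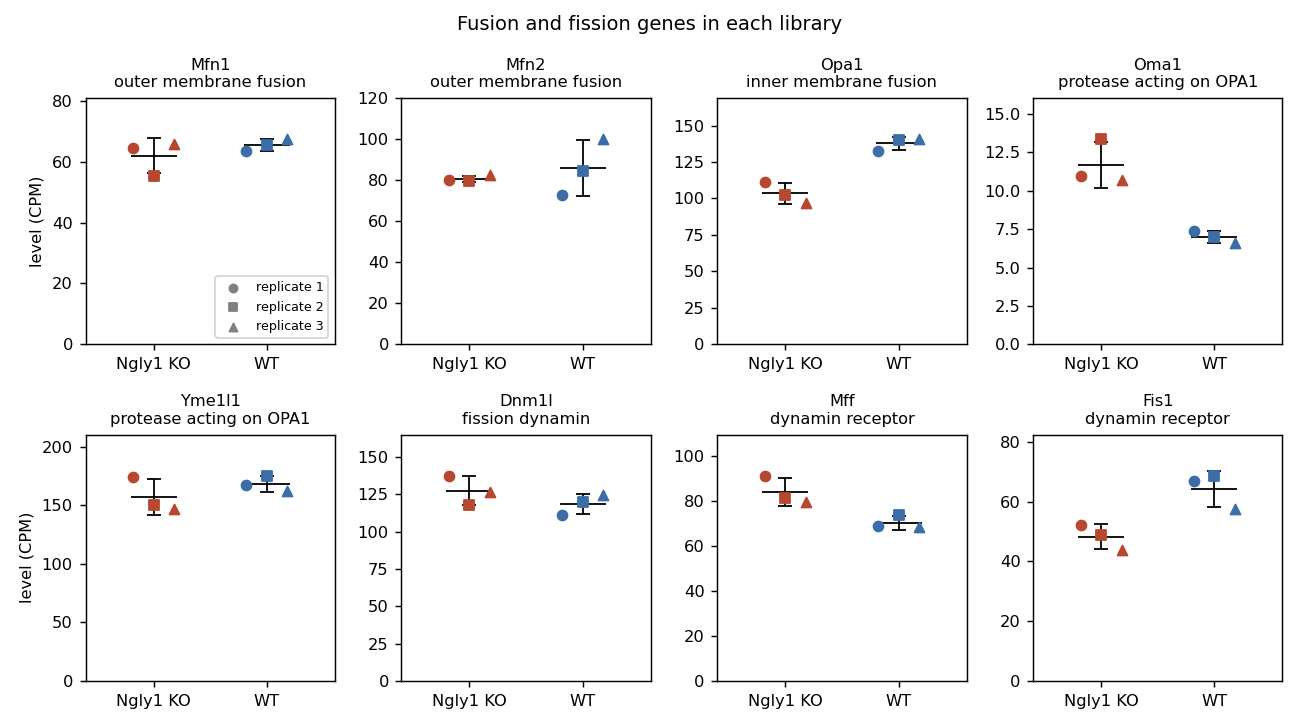
Level of each of the 8 genes in CPM (y axis, from 0) in the 3 Ngly1 KO libraries (left, red) and the 3 WT libraries (right, blue). Marker shapes give the replicate number, and bars give the mean and SD. Oma1 and Mff lie higher in every Ngly1 KO library than in any WT library, Opa1 and Fis1 lower, and the groups overlap for the other genes.

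Neither outer membrane fusion gene passed the test. Mfn1 (NCBI gene 67414, at 32529443 to 32579225 of chromosome 3, all positions in GRCm38) had 64.7, 55.4 and 65.9 CPM in Ngly1 KO libraries and 63.5, 65.6 and 67.5 CPM in WT libraries. Ngly1 KO replicate 2 was the lowest of all, and the other Ngly1 KO libraries lay within the WT range. Its log2 fold change was -0.08 ± 0.10 (SE; adjusted p = 0.497, edgeR), with a 95% interval of -0.30 to 0.14. Mfn2 (170731; chromosome 4, 147873586 to 147904909), whose product also links mitochondria to the ER, had 80.2, 79.7 and 82.5 CPM in Ngly1 KO libraries and 73.0, 84.6 and 100.2 CPM in WT libraries. The WT libraries spread widely around the tightly grouped Ngly1 KO ones, with a coefficient of variation of 1.84% in Ngly1 KO and 15.9% in WT. The log2 fold change of Mfn2 was -0.09 ± 0.12 (adjusted p = 0.528; interval -0.35 to 0.17).

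Opa1 (gene ID 74143; chromosome 16, 29579281 to 29663127), the inner membrane fusion GTPase and the gene mutated in dominant optic atrophy, was lower in Ngly1 KO cells. It had 111, 102 and 97.0 CPM in Ngly1 KO libraries and 133, 140 and 141 CPM in WT libraries. Every Ngly1 KO library lay below every WT library, with means of 104 ± 7.23 CPM in Ngly1 KO and 138 ± 4.42 CPM in WT (SD, n = 3 each). Opa1 fell by 24.9%, a log2 fold change of -0.41 ± 0.09 (adjusted p = 0.00267, edgeR). The counts are per gene and do not separate the splice forms of Opa1, and they say nothing of the cleaved forms of the protein.

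Of the OPA1 proteases, Oma1 (gene ID 67013; chromosome 4, 103311875 to 103371869) was higher in Ngly1 KO cells and Yme1l1 (27377; chromosome 2, 23155442 to 23199260) did not pass the test. Oma1 had 11.0, 13.4 and 10.7 CPM in Ngly1 KO libraries and 7.40, 7.01 and 6.62 CPM in WT libraries, so the groups did not overlap. Its rise of 1.66-fold (log2 fold change 0.73 ± 0.15, adjusted p = 0.00173, edgeR) was the largest change among the 8 genes, and 41.8% of all tested genes changed by more. Yme1l1, the ATP-dependent protease that cuts OPA1 in resting mitochondria, had 174, 150 and 147 CPM in Ngly1 KO libraries and 168, 175 and 162 CPM in WT libraries. These ranges overlap, and the log2 fold change was -0.10 ± 0.10 (adjusted p = 0.399; interval -0.32 to 0.12).

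On the fission side, Dnm1l (gene ID 74006; chromosome 16, 16312228 to 16359038) had 137, 118 and 127 CPM in Ngly1 KO libraries and 111, 120 and 124 CPM in WT libraries. Its groups overlapped and its log2 fold change was 0.10 ± 0.09 (adjusted p = 0.355; interval -0.11 to 0.31). Of the dynamin's receptors, Fis1 (66437; chromosome 5, 136953275 to 136966234) was lower and Mff (75734; chromosome 1, 82724890 to 82752390) higher in Ngly1 KO cells. Fis1 had 52.3, 48.7 and 43.8 CPM in Ngly1 KO libraries and 66.9, 68.7 and 57.4 CPM in WT libraries. No library of one group reached the other, and Fis1 was 1.33-fold lower (log2 fold change -0.42 ± 0.11, adjusted p = 0.00751, edgeR). Mff, in mammals a main receptor of DRP1, had 91.3, 81.2 and 79.8 CPM in Ngly1 KO libraries and 69.0, 73.9 and 68.3 CPM in WT libraries. The groups did not overlap, and Mff was 19.5% higher (log2 fold change 0.26 ± 0.09, adjusted p = 0.0343). Its call did not hold without Ngly1 KO replicate 1 or 2 (adjusted p = 0.0837 and 0.0547) or without WT replicate 1 or 2 (0.0939 and 0.0524), nor with library totals as the only scaling (0.245). Mff, Dnm1l and Mfn2 overlap annotated genes of the other strand, and Mff also overlaps 1 of its own strand, so reads could have been exchanged there. The groups did not overlap for 4 of the 8 genes (2 higher, 2 lower), against 67.3% of all tested genes (33.8% higher and 33.5% lower).

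**Figure D2:**
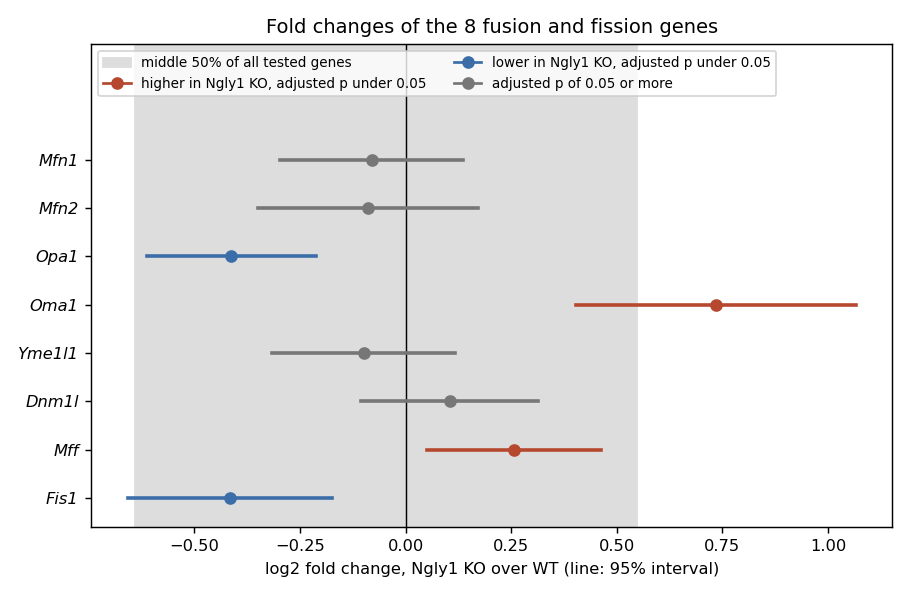
Log2 fold change of each gene, Ngly1 KO over WT (x axis), with its 95% interval as a line. The grey band holds the middle 50% of all tested genes. Red marks genes higher and blue genes lower in Ngly1 KO cells at an adjusted p under 0.05. Oma1 at 0.73 lies outside the band, and the other 7 genes lie inside it.

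Ratios of 2 genes' counts within a library do not depend on how libraries are scaled. Oma1 had 0.0629, 0.0891 and 0.0727 counts per Yme1l1 count in Ngly1 KO libraries and 0.0442, 0.0400 and 0.0409 in WT libraries. The ratio was 1.78-fold higher in Ngly1 KO cells without overlap. Mff counts per Fis1 count were 1.75, 1.67 and 1.82 in Ngly1 KO libraries and 1.03, 1.08 and 1.19 in WT libraries. This ratio was 1.59-fold higher in Ngly1 KO cells, again without overlap. Dnm1l counts per Opa1 count were 1.23, 1.15 and 1.30 in Ngly1 KO libraries and 0.839, 0.856 and 0.882 in WT libraries. The fission dynamin thus had a 1.43-fold higher ratio to the fusion dynamin in Ngly1 KO cells, and the groups did not overlap. Mfn2 counts per Mfn1 count averaged 1.31 ± 0.112 in Ngly1 KO cells and 1.31 ± 0.168 in WT cells (SD, n = 3 each), with overlapping groups. In exact two-sided permutation tests, in which 3 libraries against 3 cannot go below p = 0.1, the first 3 ratios each had p = 0.1 and the mitofusin ratio p = 1 (0.133 and 1 adjusted over the 4 ratios). A ratio shows only that 2 genes changed unequally. The first 3 ratios each hold Oma1, Mff, Fis1 or Opa1, whose own levels did not overlap between the groups. Their separation in part restates those results. Of single tested genes, 67.3% did not overlap, and the share among ratios of other gene pairs was not computed.

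**Figure D3:**
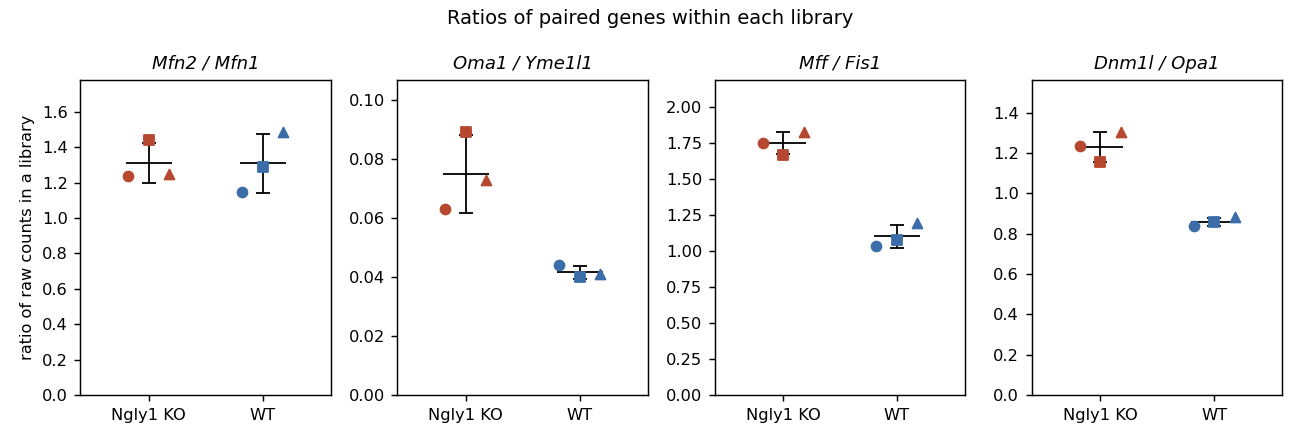
Ratio of raw counts of 2 genes within each library (y axis, from 0) in Ngly1 KO (left, red) and WT (right, blue) cells. Marker shapes give the replicate number as in the plot of levels, and bars give the mean and SD. The ratios Oma1 / Yme1l1, Mff / Fis1 and Dnm1l / Opa1 lie higher in every Ngly1 KO library than in any WT library, while Mfn2 / Mfn1 overlaps around 1.31.

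Levels can be compared between the genes after division by exon length, here the union of exons in GENCODE M21, 1102 bases for Fis1 to 6284 bases for Opa1. The annotation the authors counted on may differ from it. In Ngly1 KO cells the order, in CPM per kilobase, was Fis1 (43.8 ± 3.86), Mff (39.1 ± 2.94), Yme1l1 (33.4 ± 3.20), Dnm1l (28.1 ± 2.13), Opa1 (16.5 ± 1.15), Mfn2 (15.9 ± 0.295), Mfn1 (12.6 ± 1.18) and Oma1 (6.10 ± 0.773; SD, n = 3). Of neighbours in that order, Fis1 and Mff overlapped, as did Opa1 and Mfn2. In WT cells it was Fis1 (58.3 ± 5.51), Yme1l1 (35.8 ± 1.45), Mff (32.8 ± 1.43), Dnm1l (26.1 ± 1.44), Opa1 (21.9 ± 0.705), Mfn2 (16.9 ± 2.69), Mfn1 (13.4 ± 0.41) and Oma1 (3.66 ± 0.203; SD, n = 3). There the neighbours Yme1l1 and Mff overlapped and the others did not. Per kilobase, Opa1 thus stood apart from Mfn2 in WT cells and not in Ngly1 KO cells, which rests on the exon lengths used. Before division by length, Opa1 (97.0 to 111 CPM) lay above Mfn2 (79.7 to 82.5 CPM) in Ngly1 KO cells too. Oma1 was the lowest per length in both.

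The place of the genes on the chromosomes was set beside their changes, since the medians of whole chromosomes were not alike. Opa1 and Dnm1l both lie on chromosome 16, where the 477 tested genes had a median log2 fold change of -0.37 and 48.4% were lower, against a median of -0.04 and 30.2% lower over all tested genes. The medians of chromosomes 1, 2, 3, 4 and 5 were 0.143, 0.245, -0.165, -0.09 and 0.03. On chromosomes 1 and 2, 39.4% and 44.3% of tested genes were higher, against 30.7% over all tested genes. Among the 20 genes of at least 5 CPM nearest to Opa1, 15 were lower and 2 higher in Ngly1 KO cells, with a median of -0.47, and the change of Opa1 itself (-0.41) was near it. The 20 nearest to Dnm1l had a median of -0.30, with 10 lower and 2 higher, while Dnm1l had a log2 fold change of 0.10. Near Mff, on chromosome 1, 11 of 20 were higher and 4 lower, with a median of 0.45, above the 0.26 of Mff. The neighbours of Oma1 on chromosome 4 had a median of 0.13 and those of Fis1 on chromosome 5 one of -0.15, both nearer to 0 than the genes themselves (0.73 and -0.42). Around Mfn1, Mfn2 and Yme1l1, on chromosomes 3, 4 and 2, the medians were -0.09, -0.10 and -0.01. The minimum of 5 CPM was set after medians over all tested genes had been seen. With all tested genes as neighbours, the median around Mff was 2.44, with 13 of 20 higher and 0 lower. The medians were then -0.59 around Opa1, with 4 higher and 10 lower, -0.40 around Dnm1l, 0.215 around Oma1, -0.24 around Mfn2, and -0.08, -0.08 and 0.01 around Fis1, Mfn1 and Yme1l1. The part of the chromosomal surroundings in the change of any of the 8 genes was not tested.

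**Figure D4:**
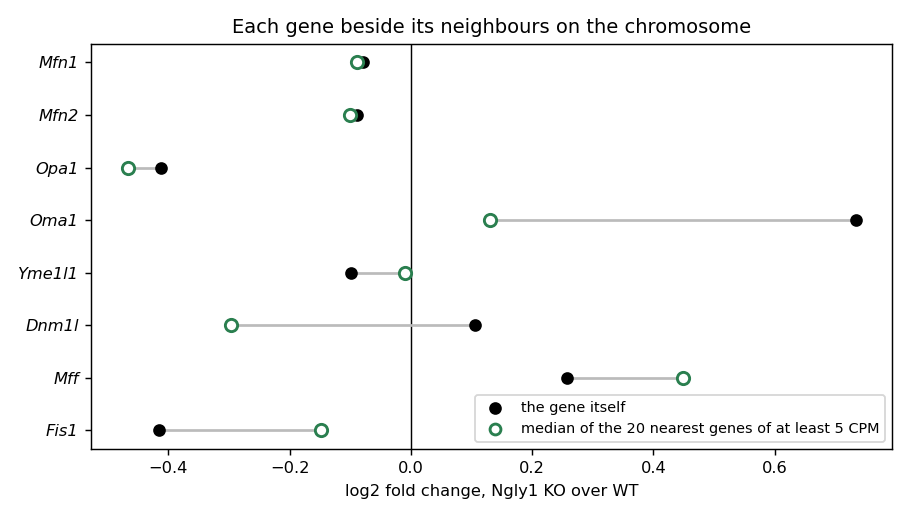
Log2 fold change, Ngly1 KO over WT (x axis), of each gene (black) and the median of the 20 nearest genes on its chromosome with at least 5 CPM (green circle). Opa1 and its neighbours are both lower (-0.41 and -0.47), whereas Oma1 (0.73 and 0.13) and Fis1 (-0.42 and -0.15) lie farther from 0 than their neighbours.

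Other genes that act on outer membrane fusion or on fission moved both ways. Of 27 listed, 25 were tested, and 8 were higher and 6 lower in Ngly1 KO cells (56% called, against 60.9% of all tested genes), with a median log2 fold change of 0.13. Mief1, encoding the DRP1 receptor MID51, averaged 120 ± 6.57 CPM in Ngly1 KO and 63.6 ± 4.28 CPM in WT cells (SD, n = 3 each; log2 fold change 0.91, adjusted p = 2.04e-05). The paralogues Miga1 and Miga2, mitoguardins of the outer membrane that promote fusion, went apart. Miga1 had 3.51, 3.08 and 3.92 CPM in Ngly1 KO libraries and 18.3, 15.7 and 19.97 CPM in WT libraries, a log2 fold change of -2.36 (adjusted p = 1.38e-06), while Miga2 rose (0.93, adjusted p = 2.47e-05). Pgam5, a mitochondrial phosphatase gene, and Slc25a46, an outer membrane carrier family member, rose with log2 fold changes of 1.17 and 0.72. The membrane-cutting dynamin genes Dnm2 and Dnm1 and the actin nucleator gene Inf2, which acts where the ER crosses mitochondria, fell, with log2 fold changes of -0.46, -0.57 and -0.46. With library totals only, which moved the median of all genes by -0.12 on the log2 scale, the list had 6 higher and 7 lower. It had 6 and 7 with at least 1 CPM required in 3 libraries, and 7 and 7 with scaling factors taken from genes outside chromosomes 2, 6, 9, 13, 16, 18, X and Y, which were shifted as groups in earlier results of these data.

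Around OPA1 in the inner membrane, 23 protease, scaffold and cristae genes were tested, and 8 were higher and 5 lower (56.5% called, against 60.9% of all tested genes; median log2 fold change 0.09). Stoml2, a prohibitin-binding scaffold of the inner membrane, had 141, 140 and 139 CPM in Ngly1 KO libraries and 59.3, 68.3 and 76.7 CPM in WT libraries (log2 fold change 1.04, adjusted p = 2.12e-05). The matrix protease genes Lonp1 and Clpp rose, with log2 fold changes of 1.18 and 0.83. Lonp1 averaged 563 ± 23.8 CPM in Ngly1 KO and 249 ± 18.7 CPM in WT cells (SD, n = 3 each). Spg7, which encodes paraplegin of the inner membrane AAA protease, fell (-0.71, adjusted p = 0.00031). Its partner Afg3l2, named after its value was seen, had 0.02 ± 0.22 (SE; adjusted p = 0.957). The 95% interval of Afg3l2 was wide, at -0.49 to 0.52. Of the complex that organises cristae, Micos13 (listed as 2410015M20Rik) rose (0.84), and Chchd3, Apool and Micos10 (listed as Minos1) fell (-0.48, -0.47 and -0.73), the last with overlapping groups. With library totals only, the list had 7 higher and 8 lower. Without Ngly1 KO replicate 2, and likewise without WT replicate 2, it had 7 higher and 2 lower, and the lower count was 3 without Ngly1 KO replicate 1, without Ngly1 KO replicate 3 or with no filter on low counts.

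Of 21 tested import, porin, matrix and mitochondrial DNA genes and regulators of mitochondrial biogenesis, 13 were higher and 4 lower in Ngly1 KO cells. That is 81% called, against 60.9% of all tested genes (30.7% higher and 30.2% lower), and the median log2 fold change was 0.55, against -0.04 over all tested genes. The difference of the list from genes at large was not tested. Without Ngly1 KO replicate 2 or without WT replicate 2, 10 were higher and 1 lower. The lower count was 2 without Ngly1 KO replicate 1 or without Ngly1 KO replicate 3. Hspa9, encoding the matrix chaperone mortalin, averaged 2355 ± 157 CPM in Ngly1 KO and 725 ± 166 CPM in WT cells (SD, n = 3 each; log2 fold change 1.70, adjusted p = 1.45e-05). Tfam, the packaging factor of mitochondrial DNA, rose (0.66, adjusted p = 0.000256), and Cs, Vdac1 and Tomm22, encoding citrate synthase, a porin and an import receptor, fell (-0.34, -0.32 and -0.32). Among the regulators, Ppargc1b rose 2.83-fold and reached 21.1 ± 3.59 CPM in Ngly1 KO cells against 7.42 ± 0.813 CPM in WT cells. Ppargc1a fell (-1.84) and lay at 0.467 ± 0.148 CPM in Ngly1 KO and 1.65 ± 0.703 CPM in WT cells (SD, n = 3 each). Counts of Ppargc1a were low, at 11, 15 and 22 in Ngly1 KO libraries and 84, 80 and 23 in WT libraries. WT replicate 3 (0.841 CPM) lay close to Ngly1 KO replicate 3 (0.620 CPM). Esrra, a nuclear receptor of the same pathway, and Pprc1 rose (0.94 and 0.67), Pprc1 at an adjusted p of 0.0495 with overlapping groups. Nrf1 and Gabpa, with log2 fold changes of 0.08 and -0.18, did not pass (adjusted p = 0.534 and 0.0897).

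**Figure D5:**
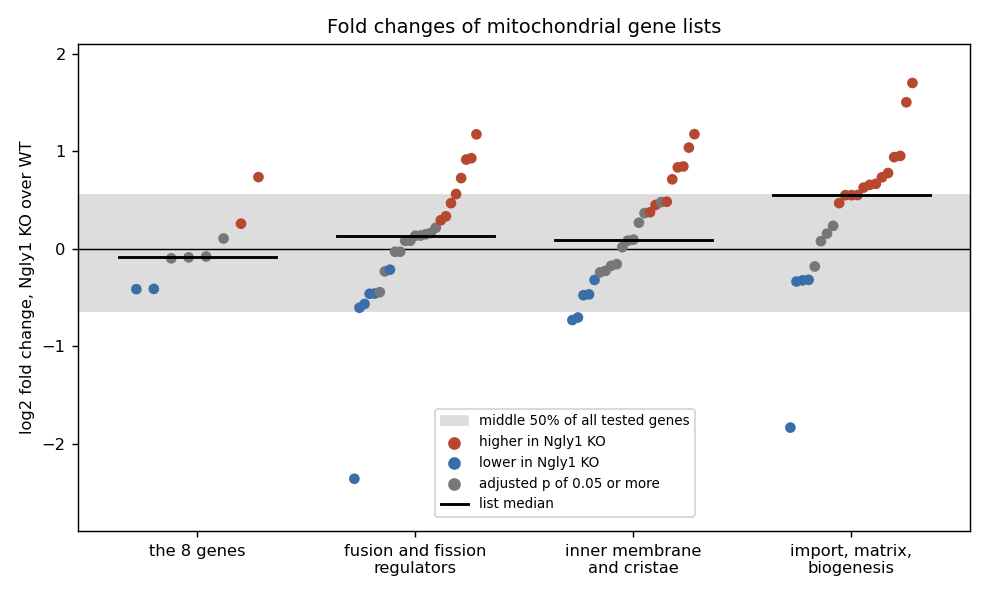
Log2 fold change, Ngly1 KO over WT (y axis), of the 8 genes and of 3 broader lists of mitochondrial genes, 1 point a gene, sorted within each list. Red and blue mark genes higher and lower in Ngly1 KO cells at an adjusted p under 0.05, black lines are list medians, and the grey band holds the middle 50% of all tested genes. The medians are -0.08, 0.13, 0.09 and 0.55 from left to right.

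OMA1 has a second substrate, DELE1, whose fragment activates the kinase HRI (Eif2ak1) and through it the translation of ATF4. Dele1 (listed as 0610009O20Rik) had 69.5, 76.8 and 69.2 CPM in Ngly1 KO libraries and 38.5, 35.9 and 34.2 CPM in WT libraries, a log2 fold change of 0.99 ± 0.10 (adjusted p = 1.54e-05). Eif2ak1 had one of 0.04 (adjusted p = 0.752). Atf4 rose (1.64), to 947 ± 107 CPM in Ngly1 KO cells against 304 ± 37.6 CPM in WT cells (SD, n = 3 each), and Ddit3, a stress-induced target of ATF4, rose by a log2 fold change of 3.49. Other kinases also lead to ATF4, and transcript levels do not show whether the relay was active.

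Among 73 genes of the broader mitochondrial lists and the DELE1 relay, the one with the nearest pattern was found for each of the 8. Nearness was the root mean square difference of log2 CPM over the 6 libraries after centring each gene on its mean. For Opa1 this was Chchd3 (difference 0.0507), for Fis1 Apool (0.0793), for Mff Rhot1 (0.0596), for Dnm1l Senp3 (0.0691), for Yme1l1 Mul1 (0.087), for Mfn2 Eif2ak1 (0.0858) and for Mfn1 Immt (0.0902). Oma1 had Micos13 as its nearest, at 0.118. Within the 8, Opa1 and Fis1 were each other's nearest (0.099), as were Mff and Dnm1l (0.101) and Mfn1 and Yme1l1 (0.106). Since 2 groups of 3 libraries make up the pattern, genes with the same difference between the genotypes come out as near.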

How the data were processed

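Total RNA extracted with Trizol was made into libraries with a stranded kit, per the labels' protocols. The deposited table gives raw counts of reads per gene in whole numbers, per the file headers. The submitters' processing notes name STAR 2.5.1b and mm10. How reads were counted (program, annotation, strand) is not given in the sources used here. Reads could therefore be exchanged with genes on the other strand, which GENCODE M21 (GRCm38) places within Mfn2, Dnm1l and Mff, and with near-identical copies. Mff also overlaps an intronic gene of the same strand, Gm28941, over 1017 bases. Among GENCODE transcripts, megablast found copies of at least 200 aligned bases for Dnm1l (91.2% identity) and Yme1l1 (96.1%), both processed pseudogenes that were not analysed here. In the table, 0 rows named no gene.

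Counts were tested over all genes in R 4.3.3 with edgeR 4.0.16: filterByExpr, TMM scaling and a two-sided quasi-likelihood test (robust fit, genotype alone in the model) with Benjamini-Hochberg adjustment over the 15039 genes tested and a threshold of 0.05. The common dispersion was 0.0239. CPM uses TMM-scaled totals. The SE is the log2 fold change divided by the root of the F statistic, and intervals are 95%. The edgeR steps were run on simulated counts in which few genes changed, as many up as down. That setting does not test them where 60.9% of genes are called, as here. The 8 genes, the broader lists and the alternatives were chosen with earlier results of these data known. From each broader list, at most 4 higher and 4 lower genes with the smallest p were named, and all tested biogenesis regulators and genes of the DELE1 relay. Lists were matched by symbol, older symbol or gene ID. Chromosome and neighbour medians use RefSeq positions in GRCm38.p6 and were added as descriptions, with the expression minimum for neighbours and the final motif forms set after values and matches had been seen, and 94.4% of the table's gene IDs were in that RefSeq table. Ratio tests used scipy 1.17.1. Alternatives were DESeq2 1.42.0 (size factors or test), library totals only, TMM factors from genes outside chromosomes 2, 6, 9, 13, 16, 18, X and Y (the shifted chromosomes), other filters on low counts, limma-voom (limma 3.58.1), the replicate number as a block and each library left out.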

Additional observations from a re-analysis of the deposited data

How the results depend on the processing

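The calls of Opa1, Oma1 and Fis1 held under all 15 alternatives, with log2 fold changes of -0.53 to -0.34, 0.62 to 0.82 and -0.54 to -0.33 and adjusted p of 0.000143 to 0.0205, 3.78e-05 to 0.0114 and 0.000448 to 0.0447. Mff kept its direction and lost its call with library totals only (0.14) and with at least 1 CPM in 3 libraries (0.22, adjusted p = 0.0514), and its log2 fold change was 0.21 to 0.32 with single libraries left out. Mfn1, Mfn2, Yme1l1 and Dnm1l stayed above the threshold in these alternatives, with a lowest adjusted p of 0.0882, 0.119, 0.0824 and 0.172. Uncalled log2 fold changes changed sign for Dnm1l with library totals only (-0.012), and for Mfn2 without both libraries numbered 3 (0.034), a setting chosen after seeing the data, in which the ratio difference was 0.133. With single libraries left out, Mfn1 ranged from -0.11 to 0.011, Mfn2 from -0.20 to 0.0496 and the log2 difference of the Mfn2 to Mfn1 ratio between the groups from -0.083 to 0.10, and 11 to 18 import, matrix and biogenesis genes were called. The cause of these shifts was not tested. By direction, 1 of the 8 genes was higher in place of 2 wherever Mff lost its call. The lower count of the inner membrane list was 2 to 4 in place of 5 with single libraries left out, 3 with no filter on low counts and 8 with library totals only. That of the import, matrix and biogenesis list was as low as 1 in place of 4 with single libraries left out, and 2 without both libraries numbered 3. The counts of the fusion and fission regulators and of all tested genes moved by no more than 1.5 times. The share of all tested genes called, 60.9% in the main fit, moved as well. It was 41.2% with no filter on low counts and 52.5% to 65.9% with single libraries left out. The other 3 ratios kept their direction.

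Deviations of same-numbered libraries from their group means correlated at 0.0961, 0.0138 and 0.209, and those of differently numbered libraries at -0.176 to 0.149. The libraries numbered 3 had the highest value, while Ngly1 KO replicate 1 correlated best with WT replicate 2 (0.149). These values do not settle whether the numbers pair the libraries, and the main model left the number out. With the replicate number as a block, 9253 genes were called in place of 9160, and the same number of the 8 genes (4). For the uncalled genes the 95% intervals give the range of differences left by 3 libraries a group.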
